A study of Mus musculus with 4 samples.

Results

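Keratins are the intermediate filament proteins of epithelial cells. The genes described here are Krt8, Krt18, Krt7, Krt19, Krt20, Krt23, Krt5, Krt14, Krt17 and Krt80, taken by gene symbol from the liver expression table. Of these 10 genes, 9 had a row among the 15500 listed genes, and Krt23 was not analysed here. They were taken by name, with earlier results of these data known.

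The samples were livers of male wild-type Kunming mice, 5 weeks old at purchase and kept on chow for 1 week before the experiment. All mice then received 1.5% (w/w) of a fatty acid in the diet for 28 days: linoleic acid in Vehicle and GW6471, or conjugated linoleic acid (CLA) in CLA and CLA+GW6471. Vehicle was given injections of vehicle where these applied, and the GW6471 and CLA+GW6471 mice received 20 mg/kg of GW6471, a PPARα antagonist, by intraperitoneal injection, daily in the GW6471 group. The labels give 6 mice per group, and each condition has 1 library in the table; whether mice were pooled for it is not stated. Every difference below therefore describes 4 libraries, has no replicate error and carries no p-value.

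A keratin filament is built from a type I and a type II keratin, so each epithelial cell expresses at least a matched pair. Hepatocytes carry Krt8 (type II) and Krt18 (type I) and normally no other pair, while bile duct cells add Krt7 (type II) and Krt19 (type I). Krt20 is a type I keratin of intestinal, gastric and urothelial cells, and Krt5 (type II) and Krt14 (type I) form the filaments of the basal layer of the skin and other stratified epithelia. Krt17 is a type I keratin of hair follicles and of injured epidermis, and Krt80 is a type II keratin of several epithelia. In the liver, Krt8 and Krt18 protect hepatocytes against mechanical and toxic stress, and misfolded Krt8 and Krt18 gather with the protein p62 in the Mallory-Denk bodies of steatohepatitis.

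The keratins lie in a pair of gene clusters. In the mm9 assembly (GENCODE vM1 annotation), the type II members were on chromosome 15, with Krt80 at chr15:101177875-101200556, Krt7 at chr15:101241474-101260744, Krt5 at chr15:101537501-101543322 and Krt8 at chr15:101827142-101834773. Krt18 is the type I gene that lies at the end of this type II cluster, at chr15:101858647-101862457. Krt8 is on the minus strand and Krt18 on the plus strand, and 23873 bp without an annotated gene separate their 5′ ends. The other type I members were on chromosome 11, Krt20 at chr11:99289717-99299464, Krt19 at chr11:100002124-100009979, Krt14 at chr11:100064476-100068862 and Krt17 at chr11:100117531-100122343. The annotation holds 23 keratin genes on chromosome 15 and 27 on chromosome 11.

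The promoters of Krt8, Krt18, Krt20 and Krt7 are shown because these were the members above 5 FPKM in every library. FPKM is the number of fragments divided by transcript length and by the mapped fragments of the library. Each sequence is the 250 bases before the transcript start, 5′ to 3′ on the gene's own strand, from RefSeq on GRCm38.p6. Capitals mark matches, on either strand, to the motifs searched. The AP-1 motif was TGANTCA. The DR1 motif, the kind of element that PPARα with RXR binds, was a direct repeat of AGGTCA with 1 base between the copies. The TATA box was searched as TATAAA, and the GC box was searched as GGGCGG. None of these motifs overlapped in the members.
Krt8: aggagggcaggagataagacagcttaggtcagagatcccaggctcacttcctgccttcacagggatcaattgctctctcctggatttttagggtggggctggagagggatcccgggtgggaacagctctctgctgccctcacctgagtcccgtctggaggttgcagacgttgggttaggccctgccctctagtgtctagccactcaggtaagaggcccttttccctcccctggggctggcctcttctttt
Krt18: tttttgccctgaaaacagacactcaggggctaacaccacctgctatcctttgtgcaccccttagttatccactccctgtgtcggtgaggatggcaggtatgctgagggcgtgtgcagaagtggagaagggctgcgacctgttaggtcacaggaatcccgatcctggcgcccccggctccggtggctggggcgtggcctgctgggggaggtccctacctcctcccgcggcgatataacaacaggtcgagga
Krt20: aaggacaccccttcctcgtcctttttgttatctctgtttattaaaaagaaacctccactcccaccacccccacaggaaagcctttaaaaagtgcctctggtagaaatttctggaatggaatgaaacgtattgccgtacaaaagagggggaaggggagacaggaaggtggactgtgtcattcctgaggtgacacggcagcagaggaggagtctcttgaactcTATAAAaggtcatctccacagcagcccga
Krt7: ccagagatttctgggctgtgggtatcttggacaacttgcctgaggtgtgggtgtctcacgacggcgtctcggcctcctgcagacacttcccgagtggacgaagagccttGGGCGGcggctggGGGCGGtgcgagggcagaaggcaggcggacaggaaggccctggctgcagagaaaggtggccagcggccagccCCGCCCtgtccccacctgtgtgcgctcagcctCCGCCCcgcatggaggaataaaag
In GRCm38.p6 these windows are chr15:102004343-102004592 for Krt8, chr15:102027966-102028215 for Krt18, chr11:99438154-99438403 for Krt20 and chr15:101412153-101412402 for Krt7. Krt20 had 1 TATA box, from 29 to 24 bases before the start, a motif present in 12.4% of the 32851 promoters of this length. Krt7 had 4 GC boxes, and 32.7% of all promoters held at least 1. The letters of AP-1, found in 6.75% of promoters, and of DR1, found in 0.0335%, were in none of the 6 member promoters in the table, which are these 4 and those of Krt5 and Krt14. The GC content was 66.0% for Krt7, 60.4% for Krt18, 58.0% for Krt8 and 48.0% for Krt20, against a median of 52.4% over all promoters. Krt17, Krt19 and Krt80 had no entry.

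Libraries were even in depth and scale. The FPKM summed to between 497015 and 522893 per library, and the depth estimated from the steps of low FPKM of short genes was 18720000 to 19220000 reads. Across genes, the CLA against Vehicle and CLA+GW6471 against GW6471 ratios, which share no library, had opposite signs for 7558 of the 10355 genes whose mean reached 1 FPKM (73.0%). Whether labels were exchanged could not be tested with 1 library per condition, and every difference between groups below holds only as far as the labels do. The labelled tissue was checked against markers of hepatocytes. Alb, the main plasma protein of hepatocytes, had 620.17 to 1321.55 FPKM, but Ttr, Apoh and Cps1, which hepatocytes normally express strongly, were at no more than 0.04 FPKM in any library. Hnf4a, which encodes a hepatocyte transcription factor, had 47.23 to 54.53 FPKM. Of 20 hepatocyte genes, 16 were listed, and 7 of these stayed below 1 FPKM in every library. The origin of the material was not tested further, so the keratin levels are those of the RNA sequenced and cannot be assigned to hepatocytes.

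Of the keratins, the simple epithelial pair was by far the most abundant. Krt18 had 1358.59 FPKM in Vehicle, 1305.19 in CLA, 1170.68 with GW6471 and 1216.02 with CLA+GW6471. Its mean over the libraries was 1263 FPKM, rank 60 of the 15500 listed genes. Krt8, the type II partner, had 491.46 FPKM in Vehicle, 442.65 in CLA, 403.01 with GW6471 and 466.21 with CLA+GW6471. Its mean of 450.8 FPKM stood at rank 152. Both genes were highest in Vehicle and lowest in GW6471, and they made up between 93.6% and 94.4% of the summed FPKM of the 9 listed members. About 13894 to 16642 reads stood behind each value of Krt8 and 31304 to 35682 behind each value of Krt18, so counting error on them was small.

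The next keratin was Krt20, which healthy hepatocytes are not known for. Krt20 had 82.34 FPKM in Vehicle, 91.83 in CLA, 86.98 with GW6471 and 82.72 with CLA+GW6471. Its mean of 86.0 FPKM stood at rank 905, above 94.2% of the listed genes. Krt20 was thus between 5.71% and 6.91% of the type I keratin FPKM, with its highest level in CLA and nearly equal levels in Vehicle and CLA+GW6471.

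The biliary keratins were split. Krt7, the type II keratin of bile ducts, had 23.47 FPKM in Vehicle, 23.14 in CLA, 18.43 with GW6471 and 18.84 with CLA+GW6471. The libraries with GW6471 were thus both below those without it. Krt19, the type I keratin that marks bile duct cells, had 0.28 FPKM in Vehicle, 0.06 in CLA, 0.11 with GW6471 and 0.11 with CLA+GW6471. This corresponds to about 16 reads in the 4 libraries together, so the levels of Krt19 could hardly be told from each other. In every library, Krt7 stood far above Krt19, its usual biliary partner.

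Among the squamous members, Krt5 alone reached a mean of 1 FPKM. Krt5 had 2.99 FPKM in Vehicle, 4.29 in CLA, 2.79 with GW6471 and 2.94 with CLA+GW6471, with the CLA library above the other libraries. Krt14, the type I partner of Krt5, had 0.03 FPKM in Vehicle, 0.05 in CLA, 0.04 with GW6471 and 0.04 with CLA+GW6471. Krt17 was listed at 0 in Vehicle and had 0.1 FPKM in CLA, 0.06 with GW6471 and 0.03 with CLA+GW6471. These levels amount to 5 reads for Krt14 and 6 for Krt17 over all 4 libraries, and 3 reads of Krt17 in Vehicle would have been 0.103 FPKM. Krt80 had 0.14 FPKM in Vehicle, 0.03 in CLA, 0.03 with GW6471 and 0.06 with CLA+GW6471, about 19 reads in all. The order Krt18, Krt8, Krt20, Krt7 and Krt5 was the same in each library, whereas the order of Krt19, Krt80, Krt17 and Krt14 was not resolved at this depth.

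**Figure D1:**
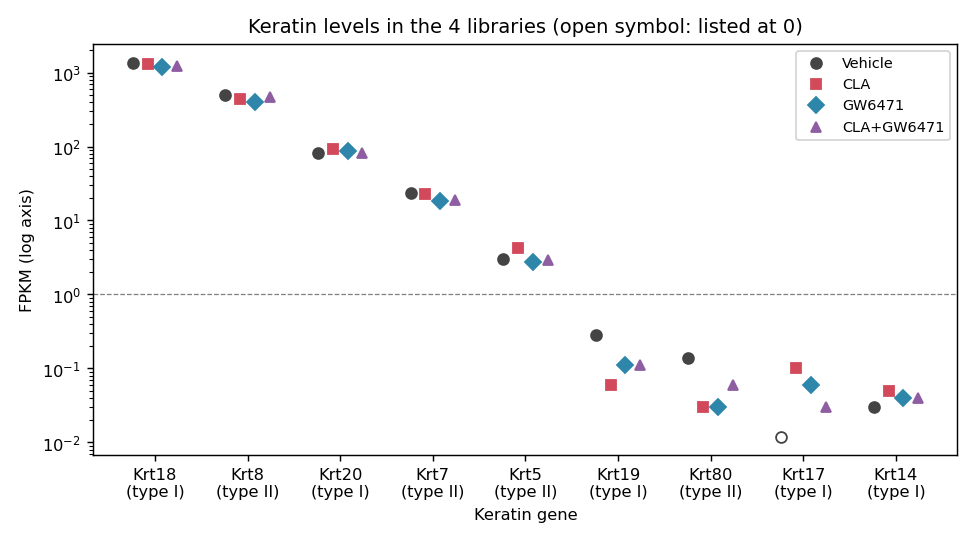
FPKM (log axis) of the 9 listed keratins, 1 symbol per library, ordered by their mean; the dashed line is 1 FPKM, and the open symbol is Krt17 in Vehicle, listed at 0 and drawn near the foot of the axis. Krt18, Krt8, Krt20, Krt7 and Krt5 lie above 1 FPKM in every library, and Krt19, Krt80, Krt17 and Krt14 below it.

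Summed by type, the type I members reached 1441.24 FPKM in Vehicle, 1397.23 in CLA, 1257.87 with GW6471 and 1298.92 with CLA+GW6471. The type II members reached 518.06 FPKM in Vehicle, 470.11 in CLA, 424.26 with GW6471 and 488.05 with CLA+GW6471. The transcripts of the types were thus unequal in amount, with a type I to type II ratio between 2.66 and 2.97. The ratio of Krt18 to Krt8 was 2.76 in Vehicle, 2.95 in CLA, 2.90 with GW6471 and 2.61 with CLA+GW6471. It was highest in CLA and lowest in CLA+GW6471. Transcript ratios in FPKM also depend on the transcript models used by the authors, which were not examined here.

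**Figure D2:**
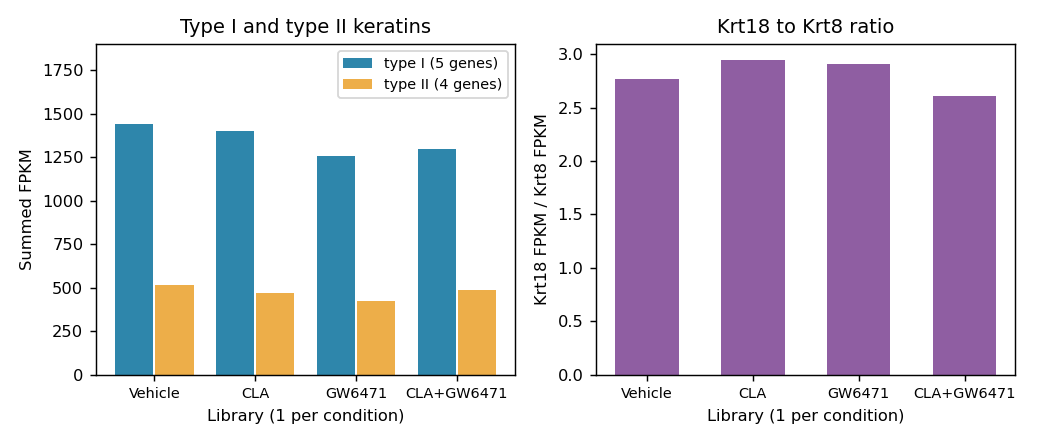
Left, summed FPKM of the 5 listed type I and the 4 type II members in each library; right, Krt18 FPKM divided by Krt8 FPKM. Type I exceeds type II in all 4 libraries, and the Krt18 to Krt8 ratio lies between 2.61 and 2.95.

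The first comparison asked how the CLA diet altered the keratins in comparison with the control group. Differences are log2 ratios of FPKM + 0.1, and a gene with a mean of at least 1 FPKM was called higher or lower from 1.5-fold. Of the 5 members with such a mean, 0 were called in CLA against Vehicle. Of 10355 genes, 12.3% were called (1272 genes), 7.33% higher and 4.95% lower. Krt5 was nearest to the limit, with a log2 ratio of 0.51 (95% counting interval 0.18 to 0.86), or 1.42-fold higher in CLA. Krt20 had a log2 ratio of 0.16 (0.086 to 0.23). Krt8 lay on the other side, at -0.15 (-0.18 to -0.12), and Krt18 at -0.058 (-0.079 to -0.036). Krt7 had a log2 ratio of -0.020 (-0.12 to 0.074), within counting error. The median over the 5 members was -0.020, and the median over all genes was -0.0071. The counting intervals come from estimated reads, and they leave out the difference between animals.

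With GW6471 against Vehicle, Krt7, Krt8 and Krt18 were lower, by less than the limit. None of the 5 members was called, with 5.39% of all genes called (558 genes), 3.29% higher and 2.1% lower. Krt7 had a log2 ratio of -0.35 (-0.45 to -0.25, or -0.61 to -0.093 with its shortest coding transcript, whose length widened the Krt7 interval in every comparison). Krt8 had -0.29 (-0.32 to -0.25) and Krt18 had -0.21 (-0.24 to -0.19). Krt20 had 0.079 (0.0063 to 0.15) and Krt5 had -0.097 (-0.48 to 0.28), the latter within counting error. The median over these 5 members was -0.21, beside a median of -0.0041 over all genes.

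In CLA+GW6471 against CLA, 0 of the 5 members were called, while 16% of all genes were (1657 genes), 6.84% higher and 9.16% lower. Krt5 was lower by a log2 ratio of -0.53 (-0.89 to -0.20), which is the same high value of the CLA library seen from the other side. Krt7 had -0.30 (-0.40 to -0.20), Krt20 had -0.15 (-0.22 to -0.079) and Krt18 had -0.10 (-0.12 to -0.080). Krt8 went the other way, at 0.075 (0.043 to 0.11). The median was -0.15 over these 5 members and 0.0090 over all genes.

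In CLA+GW6471 against GW6471, again 0 of the 5 members were called, against 6.69% of all genes (693 genes), 2.81% higher and 3.88% lower. Krt8 had a log2 ratio of 0.21 (0.18 to 0.24). Krt18 had 0.055 (0.032 to 0.077), which became -0.011 after scaling to equal FPKM sums. Krt20 had -0.072 (-0.14 to -0.00022), or -0.138 with that scaling. Krt7, at 0.032 (-0.074 to 0.14) and -0.034 with that scaling, and Krt5, at 0.073 (-0.30 to 0.45), lay within counting error. Compared with CLA against Vehicle, with which this comparison shares no library, 4 of the 5 members had the opposite sign, beside 73.0% of all genes. After scaling to equal FPKM sums, Krt7 and Krt18 did not, and the share over all genes was not recomputed with that scaling. Krt7 lay within counting error in both comparisons, so its sign is not informative.

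**Figure D3:**
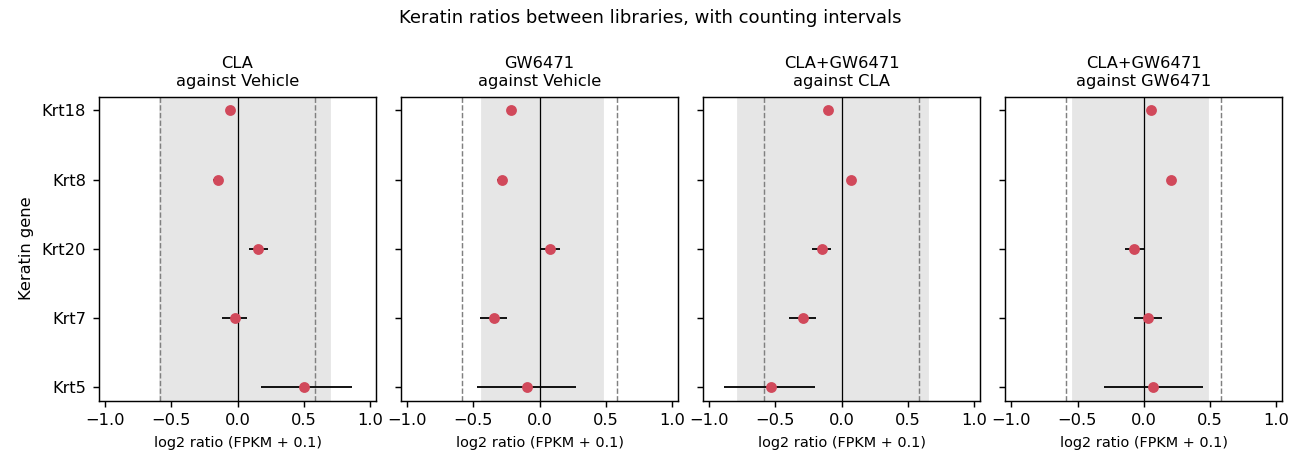
Log2 ratio of FPKM + 0.1 for the 5 keratins with a mean of at least 1 FPKM (points), with 95% counting intervals (bars, hidden behind the points of Krt18 and Krt8); grey bands hold the central 90% of 10355 genes, and dashed lines mark 1.5-fold. No keratin passes a dashed line, and Krt5 in the comparisons with the CLA library comes nearest, at 0.51 and -0.53.

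The 4 members under the filter were described by their reads. For Krt19, at 0.28 FPKM in Vehicle and 0.06 in CLA, the counting interval of the log2 ratio ran from -5.27 to 0.33. For Krt80 in CLA against Vehicle, it ran from -5.55 to -0.088 with the longest annotated coding transcript and from -7.88 to 0.84 with the shortest. No difference of Krt14, Krt17 or Krt19 between libraries was detectable at this depth, and that of Krt80 depended on the transcript length.

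Over the 4 libraries, the spread of the well-expressed keratins ran from low to that of the median gene. The highest value exceeded the lowest by 1.12-fold for Krt20, 1.16-fold for Krt18, 1.22-fold for Krt8 and 1.27-fold for Krt7. Across the 10355 genes with a mean of at least 1 FPKM, the median of this quantity was 1.27. Krt20 exceeded 11.7% of these genes, Krt18 23.1%, Krt8 37.9% and Krt7 49.7%. Of the 5 members above the filter, Krt5 varied most, at 1.54-fold, above 80.8% of genes.

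Patterns were compared by the distance between centred log2 values over the 4 libraries, among genes with a mean of at least 5 FPKM. From Krt8, its partner Krt18 was number 592 of 8181 genes in order of closeness, and Krt7 was number 2972. From Krt18, Krt8 was number 541 and Krt7 number 939. From Krt7, Krt18 was number 101 and Krt8 number 853. Krt8 and Krt18 were thus not among each other's nearest genes. By distance, Krt8 and Krt18 (0.138) were closer than Krt18 and Krt7 (0.166) or Krt8 and Krt7 (0.266). Numbers counted from different genes are not on a common scale, so the 101 seen from Krt7 does not mark a closer pair. The nearest genes to Krt8 were Fam32a, Fkbp8 and Mrps18c, those to Krt18 were Dctn3, Mcrs1 and Gart, those to Krt20 were Gaa, Stip1 and Phax, and those to Krt7 were Egln2, Trappc4 and B4galt7. With a pseudocount of 1, Coq2 came first for Krt18, and Gart was no longer among its 3 nearest genes. With 4 libraries, many genes lie close to any pattern.

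Of 32 listed keratin genes, members included, 25 stayed below 1 FPKM in every library. Besides the members, Krt10 and Krt33b reached a mean of 1 FPKM. Krt10, a type I keratin of the upper epidermis, had 1.3 FPKM in Vehicle, 0.89 in CLA, 0.9 with GW6471 and 1.37 with CLA+GW6471. Krt33b, a type I hair keratin, had 1.12 FPKM in Vehicle, 2.59 in CLA, 1.15 with GW6471 and 0.5 with CLA+GW6471. Krt33b passed this filter only through its CLA value, so the higher level in CLA partly chose it. Its log2 ratio of CLA to Vehicle was 1.14 (0.62 to 1.86) and that of CLA+GW6471 to CLA was -2.16 (-3.30 to -1.59), from about 33 reads in Vehicle, 77 in CLA and 15 in CLA+GW6471. Against GW6471, with about 35 reads, the CLA+GW6471 library was also lower, at -1.06 (-2.21 to -0.32). The other 21 keratins had at most 0.29 FPKM in any library, so that 3 of 18 listed keratins on chromosome 11 and 4 of 13 on chromosome 15 had a mean of at least 1 FPKM.

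The desmosome and plakin genes, whose products anchor keratin filaments at cell junctions, were present with the keratins. All 13 of the list had a row, 11 with a mean of at least 1 FPKM, and the median of their means was 24.0 FPKM. Jup, the gene of plakoglobin, had 42.88 FPKM in Vehicle and 64.2 in CLA, and Perp, a desmosomal membrane protein, had 84.02 and 122.15 FPKM. Dst, the gene of the plakin dystonin, lay the other way, at 49.02 FPKM in Vehicle and 36.77 in CLA (log2 ratio -0.41). The log2 ratios of 0.58 for Jup and 0.54 for Perp fell short of the limit, and 0 of the 11 genes were called in CLA against Vehicle. In CLA+GW6471 against CLA, 2 were lower, Perp at -0.71 and Jup at -0.66. In GW6471 against Vehicle 1 was higher, Ppl (periplakin) at 0.59, and 0 lower, while CLA+GW6471 against GW6471 had 0 called. Over all genes with a mean of at least 1 FPKM, 12.3% were called in CLA against Vehicle and 5.39% in GW6471 against Vehicle. For CLA+GW6471, 16% were called against CLA and 6.69% against GW6471. These shares stand beside the calls of this list and of the lists below.

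Genes of epithelial junctions were uneven. Of 20 listed, 12 had a mean of at least 1 FPKM, and 8 were below 1 FPKM in every library. The latter included Cdh1, the gene of E-cadherin, at 0.07 to 0.13 FPKM. F11r, a tight junction adhesion molecule, had 101.81 to 138.39 FPKM. In CLA against Vehicle, 2 were higher and 1 lower. Grhl2, an epithelial transcription factor, was higher, at 2.32 against 0.88 FPKM (log2 ratio 1.30), Cldn2 was higher, at 7.51 against 3.51 FPKM (1.08), and Cldn4 was lower, at 49.98 against 89.77 FPKM (-0.84). Cldn2 and Cldn4 encode claudins of the tight junction. The median was -0.043 in that comparison, -0.070 in GW6471 against Vehicle, where Grhl2 was higher and Cldn4 lower, 0.067 in CLA+GW6471 against CLA, where Cldn4 was higher and Cldn2 and Grhl2 lower, and 0.089 in CLA+GW6471 against GW6471, where Cldn4 was higher and 0 were lower. With the genes below the filter included, the median turned to 0.30 in CLA against Vehicle and to -0.092 in CLA+GW6471 against CLA.

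Proteins that bind keratins or gather with them in Mallory-Denk bodies had 11 of 14 listed genes at a mean of at least 1 FPKM. Sqstm1, which encodes p62, had 1467.61 FPKM in Vehicle, 902.05 in CLA, 1104.12 with GW6471 and 1508.29 with CLA+GW6471. It was the gene of this list called lower in CLA against Vehicle, at a log2 ratio of -0.70, and the gene called higher when CLA+GW6471 was set against CLA, at 0.74. The remaining comparisons, each against a library without CLA, had 0 called. Between CLA and Vehicle, Hsp90aa1, a heat shock protein, had a log2 ratio of -0.37. Tgm2, a transglutaminase, had 39.18 to 48.49 FPKM, and is named after its values were seen.

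Of the other intermediate filament genes, 5 of 10 listed had a mean of at least 1 FPKM. Vim, the vimentin gene of mesenchymal and many cultured cells, had 50.95 FPKM in Vehicle, 75.07 in CLA, 63.07 with GW6471 and 43.31 with CLA+GW6471. Its log2 ratio to Vehicle was 0.56 in CLA, and that of CLA+GW6471 to CLA was -0.79, and it was the gene of the list called lower in the latter. Lmna, the lamin A gene, had 189.84 to 262.28 FPKM, with a log2 ratio of -0.47 in CLA against Vehicle. Against Vehicle, 0 genes of the list were called in CLA and Prph (peripherin) was lower in GW6471, at -0.64, and CLA+GW6471 against GW6471 had 0 called.

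Markers of the cell types that use these keratins were set beside them. Of the 14 listed genes of biliary epithelium, 8 had a mean of at least 1 FPKM, and their sum was 618.52 to 942.43 FPKM per library. Spp1, an osteopontin gene of bile duct and other cells, had 301.97 to 574.44 FPKM and Cd24a, a surface protein of progenitor cells, 120.26 to 239.9 FPKM. Cftr, Aqp1 and Cldn7 were listed at 0 in at least 1 library and Cdh1 was at 0.07 to 0.13 FPKM. In CLA against Vehicle, 7.33% of all genes were higher and 4.95% lower. Of the 8 genes, 2 were higher, Cd24a at a log2 ratio of 0.78 and Spp1 at 0.63. Another 2 were lower, Cldn4 at -0.84 and Sox9, a transcription factor of bile duct cells, at -0.66. The same 4 genes had the opposite direction in CLA+GW6471 against CLA, a comparison that shares the CLA library. Cldn4 was the gene of the list called lower in GW6471 against Vehicle, at -0.70, and higher in CLA+GW6471 against GW6471, at 0.70. Krt7, beside these, had 23.47 FPKM in Vehicle and 23.14 in CLA, and was lower with GW6471 (18.43) and CLA+GW6471 (18.84).

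Of the 19 listed genes of squamous and basal epithelium, 12 were below 1 FPKM in every library. Trp63, the transcription factor of basal cells, had at most 0.04 FPKM, and Dsg3, Dsc3 and Col17a1 were listed at 0 in at least 1 library with no value above 0.01. Itga6, Lamb3 and Itgb4, which encode an integrin and a laminin of the basement membrane contact, had 72.7 to 92.96, 56.06 to 71.54 and 21.33 to 24.95 FPKM. Krt5 was above Vehicle in CLA but was not called. Of the 7 genes with a mean of at least 1 FPKM, 2 were called higher in CLA than in Vehicle, beside 7.33% of all genes. These were Sbsn, the suprabasin gene, at a log2 ratio of 0.59 and Ivl, the involucrin gene, just at the limit with 0.58. Krt10, of the same list, lay the other way at -0.50, short of the limit. Ivl was also higher in GW6471 against Vehicle, at 0.78, and lower in CLA+GW6471 against GW6471, at -0.75, and Sbsn was lower in CLA+GW6471 against CLA, at -0.82. The sum of the list was 166.74 to 203.87 FPKM per library and highest in CLA, and its part in the Krt5 value was not tested.

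Krt20 was set beside genes of intestinal epithelium and urothelium. Cdh17, an intestinal cadherin, had 268.68 to 323.63 FPKM and Vil1, the villin gene, 37.85 to 53.72 FPKM, whereas Cdx2, the intestinal transcription factor, was at 0.02 FPKM in Vehicle and listed at 0 in the other libraries. Of the 8 listed intestinal genes, 5 were below 1 FPKM in every library. Tff3, a trefoil peptide, had 59.8 FPKM in Vehicle, 29.46 in CLA, 19.2 with GW6471 and 39.46 with CLA+GW6471; Krt20 was between 82.34 and 91.83 FPKM in the same libraries. Tff3 was the gene of the intestinal list called, lower against Vehicle in CLA (-1.02) and GW6471 (-1.63) and higher in CLA+GW6471 against GW6471 (1.04). Of 4 listed urothelial genes, Upk1a, a uroplakin, had 1.69 FPKM in Vehicle, 0.89 in CLA, 0.92 with GW6471 and 2.23 with CLA+GW6471, past the limit in each comparison, and the other 3 were below 1 FPKM in every library.

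In bulk RNA, fewer cells of a type and less RNA per cell cannot be told apart. The hepatocyte list, with 6 genes at a mean of at least 1 FPKM, had 4 higher and 0 lower in CLA against Vehicle, with a median log2 ratio of 0.65. Over all 16 genes listed for hepatocytes, those near 0 included, the median was 0.24. Of all genes with a mean of at least 1 FPKM, 7.33% were higher and 4.95% lower, with a median of -0.0071. Alb had a log2 ratio of 0.96, Fgb, a fibrinogen chain, of 1.61, Trf, transferrin, of 0.66 and Ass1, an enzyme of the urea cycle, of 0.64. Hnf4a lay the other way, at -0.20. Krt8 and Krt18 lay at -0.15 and -0.058 in the same comparison. In GW6471 against Vehicle 2 of the 6 were higher, Fgb at 0.93 and Alb at 0.65. CLA+GW6471 had 4 lower than CLA, among them Fgb at -1.95 and Alb at -1.09, and 3 lower than GW6471, again with Fgb at -1.27 and Alb at -0.78. Markers of other liver cells were low, with 8 of 8 listed endothelial genes, 6 of 8 stellate cell and fibroblast genes and 4 of 6 macrophage and blood genes below 1 FPKM in every library. Dcn, a matrix proteoglycan of fibroblasts, was high, at 1147.76 to 1506.01 FPKM, and Cd68, a lysosomal protein of macrophages, had 23.43 to 35.64 FPKM. Cd68 and Pdgfra, a receptor of fibroblasts, were both higher in CLA than in Vehicle at a log2 ratio of 0.60, and Pdgfra was lower in CLA+GW6471 than in CLA, at -0.75. Of these 3 lists no other gene was called in any comparison. The part of these cells in the keratin values was not tested.

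**Figure D4:**
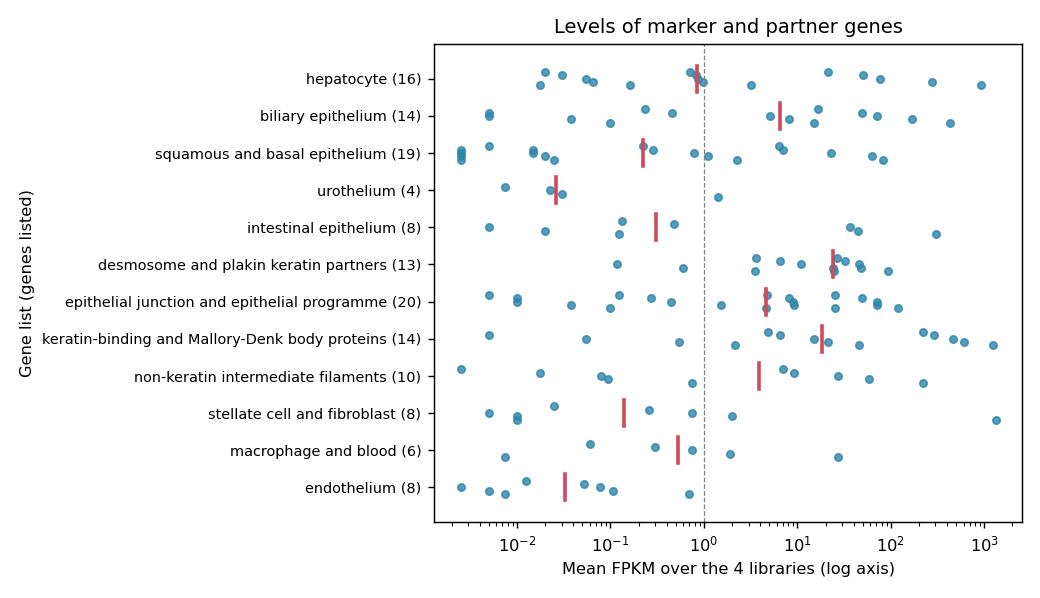
Mean FPKM over the 4 libraries (log axis) of each listed gene (points) in 12 marker and partner lists, with the number of genes listed in brackets; red bars are list medians and the dashed line is 1 FPKM. The median is 24.0 FPKM for desmosome and plakin genes, 6.59 for biliary genes and 0.839 for hepatocyte genes, and the endothelial median is 0.0325.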

How the data were processed

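Groups were taken from the treatment labels of the liver libraries. The authors aligned reads to the mm9 assembly by BWA and Bowtie, estimated expression by Cufflinks (no versions given) and deposited FPKM with 2 decimals. The table names no unit, which follows from Cufflinks and from a supplementary sheet of the study. How the 15500 listed genes were selected was not stated. Every value column was used.

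The deposited FPKM entered without rescaling, and 0.1 was added for log2. With 1 library per condition no test was made. A gene with a 4-library mean of at least 1 FPKM was called from 1.5-fold. Depth was estimated from low values (FPKM times kilobases of 0.02 to 0.5) of 529 genes shorter than 1000 nt that have 1 annotated transcript. Reads were then computed with the longest coding transcript of GENCODE vM1, and 95% intervals of ratios by the exact Clopper-Pearson method. These intervals are approximate, since they cover counting error alone. Reads shared between keratin genes of similar sequence could have been split by the authors' counting. The steps were tested on simulated data.

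The members and lists were chosen with earlier results of these data known. Named were all members, other keratins with a mean of at least 1 FPKM, the 3 genes nearest in pattern to each member above 5 FPKM, and, in each list, the 3 with the highest mean and the 2 above the filter with the largest absolute CLA against Vehicle ratio; genes cited as absent or low markers, Tgm2, and Sox9, Ass1, Ppl and Prph, cited because they were called, and Hnf4a were chosen after their values were seen. Genes of the rule with low values or small differences are given by counts. Software was Python 3.11.15 with scipy 1.17.1, numpy 2.4.6, pandas 2.3.3 and, for plots, matplotlib 3.10.9. Alternatives were pseudocounts of 0.01 and 1, no filter or one at 5 FPKM, scaling by median of ratios or to equal FPKM sums, a limit of 2-fold, and the shortest coding transcript.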

Additional observations from a re-analysis of the deposited data

Results flagged for a closer look

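Between the pair of comparisons of CLA with no CLA, without and with GW6471, 3 keratins had log2 ratios of opposite sign, both beyond their counting intervals. For Krt8 the log2 ratio was -0.15 without GW6471 and 0.21 with it, a difference of 0.36. For Krt18 it was -0.058 without and 0.055 with GW6471, a difference of 0.11, and the value with GW6471 became -0.011 with the libraries scaled to equal FPKM sums. For Krt20 it was 0.16 without and -0.072 with GW6471, a difference of -0.23. The Krt20 interval with GW6471 ended at -0.00022, close to no difference, and its value became -0.138 with the libraries scaled to equal FPKM sums. With 1 library per condition these differences were not tested. Opposite signs, whatever the counting intervals, were found for 73.0% of all genes. The share of all genes with both ratios also beyond their intervals was not computed.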

How the results depend on the processing

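No paired analysis was possible because each condition has 1 library, and for the same reason no library could be left out. The alternatives were listed with earlier results of these data known. The counts of called keratins were unaltered in 51 cases and moved in 5. The exceptions came without the filter on the mean, which adds Krt14, Krt17, Krt19 and Krt80, each at 0 to 10 estimated reads a library: 1 higher and 2 lower in CLA against Vehicle, 1 higher and 2 lower in GW6471 against Vehicle, and 1 lower in CLA+GW6471 against CLA. The higher one against Vehicle is Krt17, which is listed at 0 there, so its ratio rests on the pseudocount. The scalings moved the median over all genes by at most 0.065 (log2), and of the 5 keratins above the filter none changed the side of 1.5-fold. Scaling to equal FPKM sums turned the sign of Krt7, to -0.034, and of Krt18, to -0.011, in CLA+GW6471 against GW6471.

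Median log2 ratios of the lists moved by less than 0.1 in 107 cases and by more in 25. Without the filter, genes near 0 enter and most medians that moved came closer to 0. In CLA against Vehicle they were then 0.24 for hepatocyte, -0.35 for urothelium, 0.30 for epithelial junction, 0.21 for stellate cell and 0.21 for macrophage genes. In GW6471 against Vehicle they were 0.32 for hepatocyte, -0.48 for urothelium and 0.034 for intestinal genes. In CLA+GW6471 against CLA they were 0 for hepatocyte, -0.20 for squamous, 0.57 for urothelium, 0.10 for desmosome, -0.092 for epithelial junction and -0.29 for stellate cell genes. In CLA+GW6471 against GW6471 they were -0.13 for hepatocyte, 0.047 for biliary, 0 for squamous, 0.70 for urothelium, 0.11 for other intermediate filament and -0.19 for stellate cell genes. With a pseudocount of 1, the urothelium list, where Upk1a alone passes the filter, had -0.51 in CLA against Vehicle, -0.49 in GW6471 against Vehicle, 0.77 in CLA+GW6471 against CLA and 0.75 in CLA+GW6471 against GW6471, and the stellate cell list had -0.46 in CLA+GW6471 against CLA.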
